A study of Mus musculus with 753 samples.

Results

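IFE-B cells are sorted cells that the authors' annotation placed in the basal layer of the interfollicular epidermis (IFE). Those sorted from wounds 9 and 11 days old were taken here and split by lineage into lin+ cells, which carry tdTomato, and lin- cells, which do not. They were 161 of the 684 annotated cells, 88 of them lin+ and 73 lin-. The comparison asks what still differs between the lineages once cells share this basal label, which does not make them uniform in their markers.

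All cells came from epidermis of Gata6EFGPCreERT2 Rosa26-fl/STOP/fl-tdTomato mice, Cre (+/-) and tdTomato (+/-), so both lineages share genotype and treatment. Mice 8 to 12 weeks old, male and female and of C57BL/6J or mixed background by the study's methods, received 4-hydroxytamoxifen on clipped back skin and were wounded through the full skin a week later. Cre is made where *Gata6* is active, so that tdTomato marks cells that expressed *Gata6* at labelling and their progeny. A lin- cell is therefore any sorted cell that lacks tdTomato, including one of the *Gata6* lineage that escaped recombination. Wound cells were mixed with epidermal cells of CAGGS eGFP mice as carrier, which were removed by GFP, and CD45+ cells were excluded in the sort. Neither tdTomato nor eGFP has an entry in the table of values, so the lineage call rests on the sort. Sorting gates took cells low and high for Itga6. Each day has 2 replicates of 1 mouse each, and the lin+ and lin- cells of one day and replicate came from the same mouse and form a pair. The 4 pairs, in the order day 9 replicate 1, day 9 replicate 2, day 11 replicate 1 and day 11 replicate 2, held 29, 17, 18 and 24 lin+ cells and 21, 17, 15 and 20 lin- cells. This order is kept for every list of values below. Replicate 1 of both days was sequenced in the first batch and replicate 2 in the second, and every pair lies within 1 batch.

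Basal IFE keratinocytes sit on the basement membrane, express *Krt5* and *Krt14*, and divide to replace the layers above them. *Gata6* encodes a transcription factor made in the sebaceous duct and the upper part of the hair follicle, where cells normally differentiate and are lost. After wounding, cells of that compartment can enter the repairing epidermis and attach to its basement membrane. Keratinocytes can also display antigen. MHC class II molecules, made of an alpha and a beta chain and assembled with the invariant chain *Cd74*, present peptides to helper T cells and are induced in epithelial cells by interferon-gamma through *Ciita*.

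Each cell was a single well read by Smart-seq2, which covers whole transcripts and counts reads without molecular identifiers. The median cell had 5427259 reads in the first batch and 1972524 in the second. Leaving aside 2 lin- cells with 18 and 5 reads, the cells held 81312 to 7790763 reads and 989 to 7086 genes. The median number of genes per cell was 3323, 3740, 2732 and 3924 in the lin+ sets and 3282, 3305, 1847 and 3570 in the lin- sets. It was higher in lin+ cells of all 4 pairs (two-sided exact sign permutation test, p = 0.125, the smallest value 4 pairs can give), and its part in the results was not tested.

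Levels are given as CPM, a gene's value per 1000000 of the total of its cell, averaged over the IFE-B cells of a set. For the first batch this is a share of read counts and for the second a share of values already scaled for gene length, so levels are compared within a pair and no mean over the 4 sets is given. Whether sets overlap is stated over all 8 sets despite these units, and an overlap can hide a direction that holds within each pair. Differences are on the scale of log2 of the level plus 1, which understates the change of genes with low levels. They are given as lin+ minus lin- with the moderated standard error (SE) of limma, which also draws on the variance of other genes.

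The basal label was checked against its markers. All 8 markers (*Krt5*, *Krt14*, *Krt15*, *Mt2*, *Itga6*, *Itgb4*, *Col17a1* and *Trp63*) had reads in both lineages. Reads for both *Krt5* and *Krt14* were found in 86 of 88 lin+ cells (97.7%) and in 58 of 73 lin- cells (79.5%), and 6 lin- cells, including the 2 of few reads, had neither. One lin- cell of day 9 replicate 2 held 74117 CPM of melanocyte markers, 96.0% of their sum over all 161 cells, and no read of *Krt5* or *Krt14*. Of 7 immune markers, *Cd207*, *Cd3e* and *Trdc* were at 0, and the summed level of the others ranged from 0.211 to 292 CPM in lin+ sets and from 0 to 7.39 in lin- sets. Fibroblast markers summed to 0.0117 to 33.4 CPM in lin+ sets and 2.81 to 22.6 in lin- sets.

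The lineages also fell differently into the clusters of the deposited annotation. Cluster 0 held 44.8, 94.1, 72.2 and 87.5% of the lin+ cells but 33.3, 23.5, 40 and 15% of the lin- cells. Cluster 1 held 0, 0, 0 and 4.17% of the lin+ cells and 9.52, 70.6, 6.67 and 70% of the lin- cells. Both differences had 1 direction in 4 of 4 pairs (exact sign permutation test, p = 0.125 for each), and that of cluster 1 lay mostly in replicate 2, with 26 of 37 lin- cells (70.3%, exact 95% interval 53.0 to 84.1) against 1 of 41 lin+ cells, while replicate 1 had 3 of 36 lin- cells and 0 of 47 lin+ cells. Among the lin- cells of replicate 2, the 26 of cluster 1 had a mean *Krt14* level of 971 CPM against 7769.7 in the other 11, and *Col17a1*, a hemidesmosome collagen, had reads in 4 of 26 against 7 of 11 cells. Clusters were drawn by the authors from expression, so these gene values describe the cluster and test nothing. Because the batch and the replicate coincide, they cannot be told apart. Values given below without cluster 1 rest on lin- sets of 19, 5, 14 and 6 cells and values within cluster 0 on lin- sets of 7, 4, 6 and 3 cells, and the genes tested differ between these fits. The median over all genes tested was 0.40 and 0.52 in them.

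**Figure D1:**
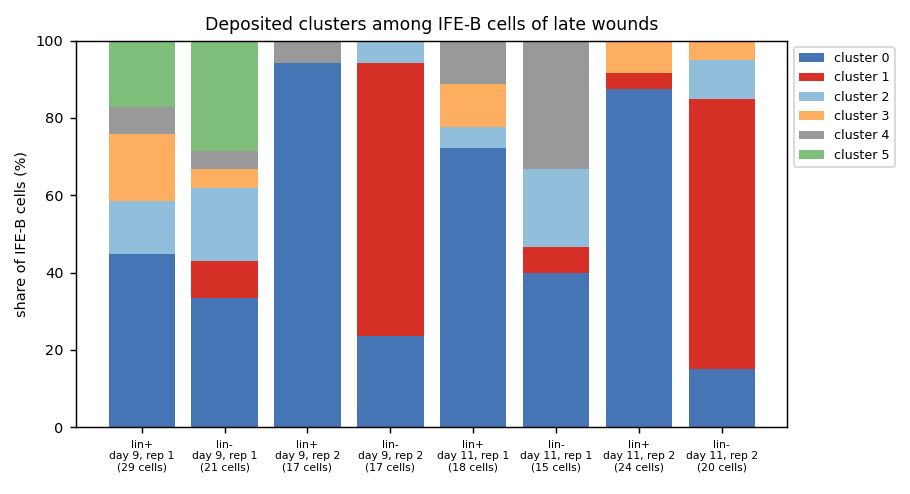
Share of the IFE-B cells of each set (vertical axis, %) in each of the 6 clusters of the deposited annotation, for lin+ and lin- cells side by side in each pair. Cluster 1 (red) holds 70.6 and 70% of the lin- cells of replicate 2 and at most 4.17% of the lin+ cells of any set.

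Across 9314 genes with a level of at least 10 CPM in at least 2 of the 8 sets, no gene passed an adjusted p of 0.05 (limma with the mouse set as block, Benjamini-Hochberg over all genes tested). This is 0% of those tested, and the smallest adjusted p was 0.13. At an unadjusted p under 0.05 there were 686 genes, 420 higher in lin+ cells (4.51%) and 266 lower (2.86%). The quasi-likelihood test of edgeR on recovered reads called 0 genes, with 340 at an unadjusted p under 0.05, DESeq2 called 492, and limma on the mean over cells of log values called 80. Of the 492 genes of DESeq2, 317 had reads in fewer than 20 cells. Genes higher in lin+ cells in all 4 pairs were 785 (8.43%) and genes lower in all 4 pairs 577 (6.19%). The median difference over all genes tested was 0.07. The genes described below lie at the ends of this ranking, and none of them passed the test. The 20 named at its ends were all called by DESeq2, and 10 of them by limma on the mean of log values. These genes were chosen by their p in the same cells, so such calls are not independent support. Without day 11 replicate 1, limma called 15 genes, 4 higher, among them *Ly6d* and *Krt14*, and 11 lower, among them *Krt73*, *Krt25*, *Krt28*, *Krt71*, *Dlx3*, *Mfap2*, *Lgals1* and *Gja1*.

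*Ly6d*, which encodes a GPI-anchored surface protein of the Ly6 family found on keratinocytes, had the smallest unadjusted p among genes higher in lin+ cells. It stood at 6969.6, 9169, 3912 and 11251 CPM in lin+ sets and at 2827, 3128, 1900.1 and 2994 in lin- sets. Every lin+ set was above every lin- set, as held for 137 of the genes tested (1.47%). The difference was 1.45 (SE 0.16, limma adjusted p = 0.13), and reads were found in 85 of 88 lin+ cells (96.6%) against 41 of 73 lin- cells (56.2%). With each cell thinned to 500000 reads, which 85 lin+ and 69 lin- cells reach, the shares were 96.5 and 54.8%. In the mean over cells of log values, which weighs this share of cells, the difference of *Ly6d* passed. Without cluster 1 it was 0.55, beside a median over all genes of 0.40 in that fit.

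The MHC class II genes had the highest median of the 23 lists of genes and 2 added ones that were followed. Of 7 members 6 were tested, 5 were higher in lin+ cells in all 4 pairs and none was lower in all 4, 0 passed and the median difference was 3.34, against 0.07 over all genes. *H2-Aa*, the class II alpha chain, was at 46.4, 77.3, 192 and 102 CPM in lin+ sets and at 0 in all 4 lin- sets. It had reads in 12 of 88 lin+ cells and in 0 of 73 lin- cells, which allows a share of up to 4.11%. Summed over cells it had 29588 reads in lin+ cells and none in lin- cells, so that its share of reads was at least 7850.2-fold higher against a floor of 3 reads over the group, a bound that covers counting error alone, for reads that are not independent molecules. The fitted difference of *H2-Aa* was 6.53 (SE 0.79, limma adjusted p = 0.13), which depends on the 1 added before the log and is no bound.

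*H2-Ab1*, the class II beta chain, was at 148, 195, 506 and 283 CPM in lin+ sets and at 11, 23.1, 41.3 and 66.4 in lin- sets. The groups did not overlap, and the difference was 3.08 (SE 0.40, limma adjusted p = 0.14). *Cd74* was at 93.6, 366, 489 and 645 CPM in lin+ sets and at 0.0832, 12, 34.1 and 61.9 in lin- sets. Again every lin+ set was above every lin- set, and the difference was 4.61 (SE 0.57, limma adjusted p = 0.13).

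The other members of the class II pathway were less uniform. *H2-DMa*, a subunit of the peptide exchanger, had levels of 38, 17.7, 75 and 10.9 CPM in lin+ sets and 30.1, 0, 0 and 0 in lin- sets, so that the groups overlapped. *H2-Eb1*, the second beta chain, differed by 2.44 and *H2-DMb1* by 2.10, each with an unadjusted p above 0.05. *Ciita*, their inducer, was too low for the test, with 104 reads in lin+ cells and 0 in lin- cells.

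At least 2 of *H2-Aa*, *H2-Ab1*, *H2-Eb1* and *Cd74* had reads in 18 of 88 lin+ cells (20.45%, exact 95% interval 12.6 to 30.4) and in 1 of 73 lin- cells (1.37%, interval 0.0347 to 7.40). All 18 of these lin+ cells also had reads of *Krt5* and *Krt14*, and 16 lay in cluster 0. Of the 18, 3 had reads of any of the 7 immune markers, 1 had reads of *Ptprc*, which encodes CD45, and 0 had reads of *Cd207*, the Langerhans cell lectin. In all IFE-B cells, an immune marker had reads in 8 lin+ and 2 lin- cells. Leaving out the single cell with 2 or more of these markers, a lin+ cell, the differences of *H2-Aa*, *Cd74* and *H2-Ab1* were 6.55, 4.62 and 3.09.

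Stretches before the start sites of 2 class II genes are shown because 5 members of the list were higher in all 4 pairs and class II promoters are known to carry a CCAAT box (Y box) that NF-Y binds. Of the class II list, 4 genes have a RefSeq promoter entry (GRCm38.p6, 250 bases before to 50 after the start site), and all 4 hold CCAAT or its reverse complement ATTGG. Among all 27025 genes with an entry 37.5% do. For *H2-DMa*, 1 entry holds a match 198 bases before the start site and another holds none. *H2-Ab1* and *Cd74* have no entry. The stretches lie on chromosome 17, chr17:34287847-34287906 on the minus strand for *H2-Aa* and chr17:34305797-34305856 on the plus strand for *H2-Eb1*, with the motif in capitals.
H2-Aa: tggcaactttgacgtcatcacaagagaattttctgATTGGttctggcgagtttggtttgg
H2-Eb1: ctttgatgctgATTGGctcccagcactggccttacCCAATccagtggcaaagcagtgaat
A match of these letters is a description of the sequence and not of binding in these cells.

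MHC class I and interferon-induced genes leaned the same way. Of 17 members 13 were tested, 0 passed, 5 were higher in lin+ cells in all 4 pairs and none was lower in all 4, all 13 fitted differences were positive, and the median was 1.35. *H2-T22*, a non-classical class I gene named for its rank rather than from that list, was at 114, 157, 153 and 214 CPM in lin+ sets and at 17.7, 37, 38.6 and 32.5 in lin- sets. The sets did not overlap and the difference was 2.33 (SE 0.37, limma adjusted p = 0.37). *Psmb9*, a subunit of the immunoproteasome, was at 295, 239.9, 292 and 161 CPM in lin+ sets against 132, 52.9, 0 and 5.51 in lin- cells. Its lin+ sets were also above all lin- sets, and reads were found in 42 of 88 against 11 of 73 cells. *H2-D1* and *H2-K1*, classical class I heavy chains, differed by 1.00 and 1.35, with overlapping sets. Class I genes are members of a family of near-identical copies, so reads of *H2-D1*, *H2-K1* and *H2-T22* may have been split between them. The list's median was 0.75 without cluster 1, beside 0.40 over all genes in that fit.

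**Figure D2:**
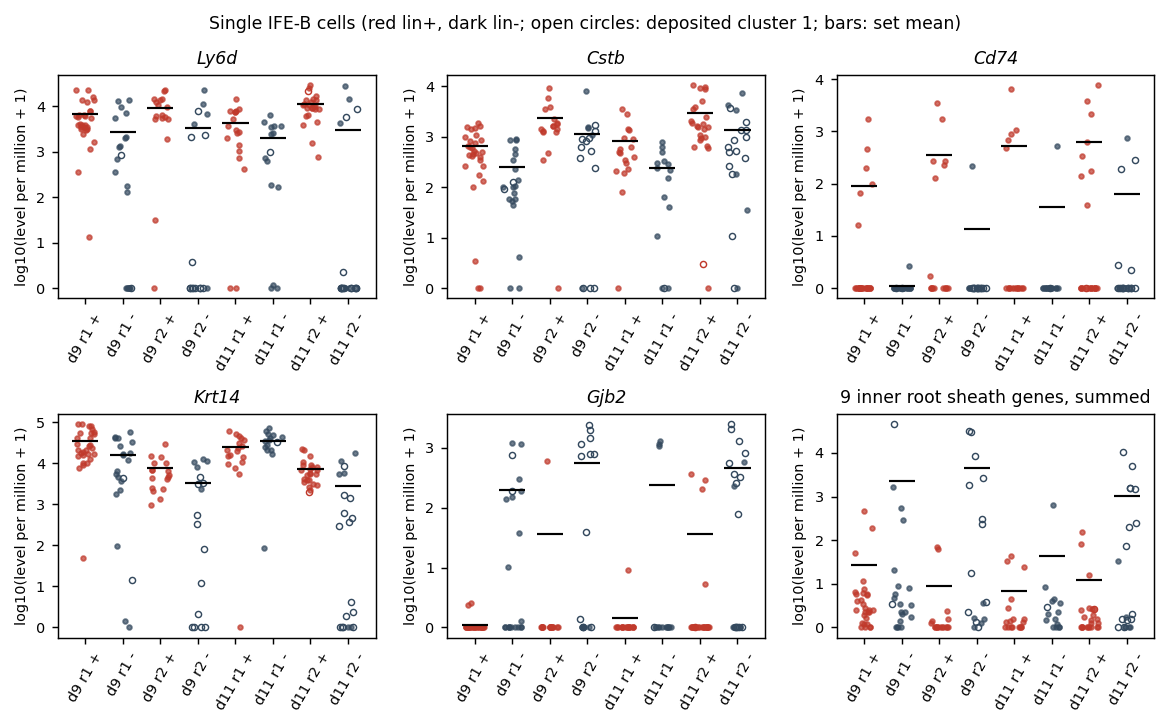
Level of 5 genes and of 9 inner root sheath genes summed (vertical axis, log10 of the CPM plus 1) in every IFE-B cell, by set (horizontal axis: day, replicate, + for lin+ and - for lin-). Red points are lin+ cells, dark points lin- cells, open circles cells of cluster 1 and bars set means. *Ly6d* had reads in 85 of 88 lin+ cells and 41 of 73 lin- cells, and *Cd74* in 26 and 8.

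Other genes at the higher end have metabolic, protease-inhibitor or signalling roles. *Adh7*, an alcohol dehydrogenase that oxidises retinol, was at 405, 541, 416 and 911 CPM in lin+ sets and at 124, 127, 29.7 and 30.4 in lin- sets. The sets did not overlap, and 67 of 88 lin+ cells (76.1%) but 14 of 73 lin- cells (19.2%) had reads. The difference was 3.10 (SE 0.54, limma adjusted p = 0.41) in all IFE-B cells and 3.17 within cluster 0 alone.

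*Cstb*, an intracellular inhibitor of cysteine proteases, was at 683, 2352, 768 and 3029.8 CPM in lin+ sets and at 256, 1071, 229.9 and 1391 in lin- sets. The sets overlapped across the batches, although each pair differed by 1.12 to 1.74. *Chil1*, a chitinase-like secreted protein, was at 141, 139.9, 136 and 207 CPM in lin+ sets against 27.2, 0, 0 and 8.87 in lin- cells. Its lin+ sets were above all lin- sets, with reads in 21 and 3 cells.

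*Plk2*, a kinase of the polo-like family, differed by 1.98 (SE 0.36) with overlapping sets. *Rpp25*, a subunit of RNase P, had reads in 12 lin+ cells and 1 lin- cell, and its levels were 35.4, 59.4, 13.4 and 38.7 CPM against 0.0252, 0, 0 and 0. The lin+ sets of *Rpp25* lay above all lin- sets.

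Genes of the compartment of origin did not pass either. *Gata6* itself stood at 14.6, 16.4, 24.5 and 21.3 CPM in lin+ sets and at 0.675, 0.0056, 0 and 3.32 in lin- sets. The sets did not overlap, the difference was 3.59 (SE 0.87, limma adjusted p = 0.62), and reads were found in 20 of 88 lin+ cells and 4 of 73 lin- cells. The list of upper follicle and duct markers had 12 members, all tested, of which 0 passed, 5 were higher in lin+ cells in all 4 pairs, none was lower in all 4, and the median difference was 1.23, or 0.77 without cluster 1 and 0.31 within cluster 0, where it lay below the median of all genes. In late-wound cells of all other identities (77 lin+ and 72 lin-) the same list had a median of 2.82.

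*Defb6*, a beta-defensin, was at 116, 555, 60.1 and 494 CPM in lin+ sets and at 44.6, 0.635, 2.12 and 335 in lin- sets, higher in each pair, though the sets overlapped. Of its summed level over cells, 1 cell held 81.4% in lin- cells and 1 cell 17.6% in lin+ cells. *Cst6*, a cystatin of the upper follicle, differed by 2.09 (SE 1.04) and was lower in lin+ cells of day 11 replicate 2. For *Cst6* the highest cell held 57.4% of the sum in lin- cells and 29.2% in lin+ cells. *Krt79*, the keratin of the follicle canal, was at 426, 305, 291 and 572 CPM in lin+ sets and at 1386, 387, 59.6 and 462 in lin- sets. Its 2 pairs of day 9 were lower and its 2 pairs of day 11 higher in lin+ cells, and the fitted difference of 0.13 (SE 0.57) changed sign in edgeR and DESeq2, with pairs weighted by cells, in replicate 2 alone, without cluster 1, without day 11 replicate 1 and in cells with reads of both *Krt5* and *Krt14*.

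*Alox12e*, an epidermal lipoxygenase, was at 1662, 158, 655 and 231 CPM in lin+ sets and at 176, 75.3, 0.0111 and 120.3 in lin- sets. It was higher in each pair, with a difference of 3.64 (SE 1.29) that ran from 0.94 to 9.34 among pairs. In the other 2 lists of differentiated keratinocytes, suprabasal and cornified envelope genes had 10 of 18 members tested, 3 higher and 1 lower in all 4 pairs and a median of 1.04 (0.42 without cluster 1 and 0.34 within cluster 0), and lipoxygenase and barrier lipid genes had 9 of 12 tested, 1 higher and 0 lower in all 4 pairs and a median of 0.25, which was 1.86 over 8 genes without cluster 1 and 1.91 over 5 genes within cluster 0. *Krtdap*, a secreted protein of differentiating keratinocytes, was at 958, 2441, 375 and 4298 CPM in lin+ sets and at 277, 431, 244 and 2109 in lin- sets. It was higher in each pair, the sets overlapped, and the difference was 1.48 (SE 0.31, limma adjusted p = 0.62). *Krt10* was at 335, 34.2, 137 and 103 CPM in lin+ sets and at 11.7, 58.1, 111 and 190 in lin- sets. *Krt1* was at 250, 0, 47.3 and 39.6 CPM in lin+ sets and at 101, 0.692, 0 and 107 in lin- sets. Both keratins were higher in lin+ cells in the pairs of replicate 1 and lower in those of replicate 2.

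Basal and stem cell genes were followed because cells were chosen by the basal label. Under that label 58 of 73 lin- cells had reads of both *Krt5* and *Krt14*, and 6 had neither. Whether missing reads mean another cell type or reads missed in single cells was not tested. All 18 basal markers were tested, 0 passed, 1 was higher in lin+ cells in all 4 pairs, none was lower in all 4, and the median was 0.35, or -0.01 without cluster 1. *Krt14* was at 36164, 7532, 22278 and 7381 CPM in lin+ sets and at 16313, 3099, 34145 and 2698 in lin- sets. The groups overlapped, day 11 replicate 1 went against the other 3 pairs, and the difference of 0.82 was -0.04 without cluster 1 and -0.67 within cluster 0. *Krt5* differed by 0.64 and by -0.50 within cluster 0, and *Itga6*, the integrin used in the sort, by 0.23 (SE 0.54), with a change of sign without cluster 1, in replicate 1 alone and without day 11 replicate 2.

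*Lrig1*, a receptor-binding membrane protein that marks stem cells of the junctional zone, was at 222, 53.8, 336 and 35.8 CPM in lin+ sets and at 83.5, 29.9, 78.7 and 7.96 in lin- sets. It was higher in each pair with overlapping sets, and the difference was 1.59 (SE 0.41, limma adjusted p = 0.62). *Myc*, a transcription factor of growth and ribosome synthesis, was at 696, 237, 1548 and 383 CPM in lin+ sets and at 514, 187, 346 and 73.5 in lin- sets. It too was higher in each pair, with a difference of 1.33 (SE 0.41, limma adjusted p = 0.62) and reads in 67 of 88 against 31 of 73 cells.

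The list of *Myc* and its targets had a median of 0.03 over 15 genes, 2 of them higher and 1 lower in all 4 pairs, and of 0.45 without cluster 1. Mitosis genes (15 tested, 0 higher and 1 lower in all 4 pairs) had a median of 0.04 and replication genes (14 tested, 0 higher and 1 lower) one of 0.10. The replication median was 1.59 without cluster 1 and 1.86 within cluster 0, beside 0.40 and 0.52 over all genes, with 12 of 13 and 13 of 14 fitted differences above 0. All genes tested leaned the same way in these fits. Without cluster 1, 560 were higher and 76 lower at an unadjusted p under 0.05 (limma), and within cluster 0, 644 and 82. *Mki67*, the Ki67 proliferation antigen, was at 81.4, 50.9, 12.7 and 29.7 CPM in lin+ sets and at 94.4, 77, 17.8 and 55.2 in lin- sets. It was lower in lin+ cells of each pair by 0.21 to 0.87, and its sets overlapped.

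**Figure D3:**
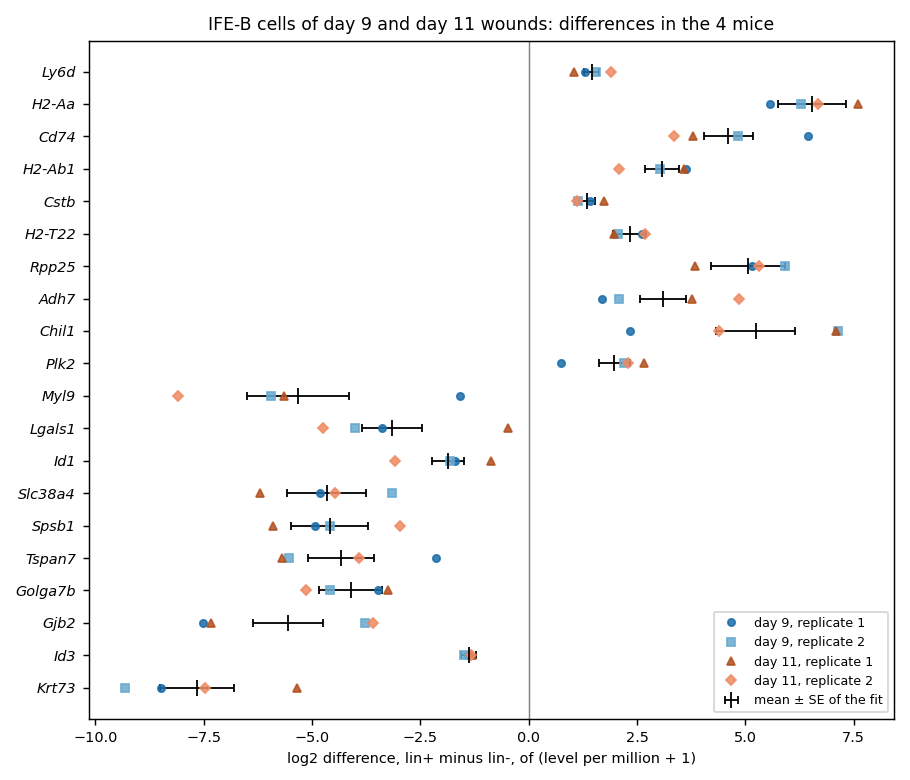
Difference between lin+ and lin- IFE-B cells (horizontal axis, log2 of the CPM plus 1) for the 10 genes at each end of the ranking, with 1 point per pair, and a bar for the fitted mean and its standard error. Each gene has all 4 pairs on one side of 0, a condition of its choice, and none passed the test.

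At the lower end the genes were of several kinds. *Id3* and *Id1* encode inhibitors of basic helix-loop-helix transcription factors and respond to bone morphogenetic protein signalling. *Id3* was at 386, 328, 727 and 564 CPM in lin+ sets and at 1019, 918, 1799 and 1425 in lin- sets. The sets did not overlap, as held for 91 genes in that direction (0.977%), and the pair differences, -1.30 to -1.48, were close to each other. Its difference was -1.38 (SE 0.17, limma adjusted p = 0.13) with all cells and 0.29 without cluster 1. Among the lin- cells of replicate 2 the mean *Id3* level was 1693 CPM in the 26 of cluster 1 and 122 in the other 11. In replicate 1 it was 5758 CPM in the 3 lin- cells of cluster 1 and 950 in the other 33. *Id1* differed by -1.87 (SE 0.37), and by 0.58 without cluster 1.

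*Gjb2*, the gap junction protein connexin 26, was at 0.107, 36, 0.414 and 36.7 CPM in lin+ sets and at 203, 509, 228 and 452 in lin- sets. No lin+ set reached a lin- set, and reads were found in 8 of 88 lin+ cells (9.09%) and 34 of 73 lin- cells (46.6%), or in 5.95 and 45.5% after thinning. The difference was -5.56 (SE 0.81, limma adjusted p = 0.22), -2.98 without cluster 1 and -2.84 within cluster 0. *Gja1*, connexin 43, differed by -2.38 (SE 0.69) and was higher in lin+ cells of day 11 replicate 1. Over the 6 connexins tested the median was -0.50, or -0.03 without cluster 1, and 3 fitted differences were above 0.

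*Krt73*, a keratin of the inner root sheath of the hair follicle, was at 362, 634, 40.3 and 181 CPM in lin- sets and at 0.0219, 0, 0.0139 and 0.0238 in lin+ cells. The sets did not overlap, and the difference was -7.65 (SE 0.86, limma adjusted p = 0.13). Of 9 inner root sheath genes, a list added after *Krt73* was seen, 5 were tested, 3 were lower in all 4 pairs, none was higher in all 4, and the median was -6.10. It was -3.80 in cells with reads of both *Krt5* and *Krt14*. Without cluster 1 none of the 9 was high enough to be tested, and within cluster 0 the 1 gene tested, which was not *Krt73*, differed by 0.97. The mean *Krt73* level within cluster 0 was 31.2 CPM over 20 lin- cells and 0.016 over 63 lin+ cells. These means pool both batches, whose units differ, and 3 cells of each lineage had reads. The summed level of the 9 genes in all IFE-B cells was 26.5, 7.79, 5.83 and 10.9 CPM in lin+ sets against 2316, 4453, 43.1 and 1033 in lin- cells.

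The inner root sheath signal lay in few cells. The summed level exceeded 100 CPM in 22 cells, 19 of them lin-, and 15 of the 22 were in cluster 1. It exceeded 1000 in 12 lin- and 0 lin+ cells, and the highest cell reached 46038 CPM. Of the 19 lin- cells, 10 had reads of both *Krt5* and *Krt14*. Replicate 1 held 5 of the 19 (of 36 lin- cells) and replicate 2 held 14 (of 37).

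Transcription factors of hair matrix and placode, also a list added after values were seen, had 10 of 12 members tested, 2 lower and 0 higher in all 4 pairs, and a median of -3.50, or -1.57 without cluster 1. *Dlx3* was at 0, 0, 0.167 and 0 CPM in lin+ sets and at 110.3, 235, 0 and 123 in lin- sets. *Msx2* was at 0, 2.86, 0 and 0 CPM in lin+ sets and at 117, 133, 0 and 84.2 in lin- sets. Both were at 0 in the lin- cells of day 11 replicate 1, so their groups overlapped.

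Outer bulge markers, which mark the stem cell niche of the lower follicle, had 12 of 14 members tested, 2 higher and 2 lower in all 4 pairs, and a median of -1.89, or -0.51 without cluster 1. *Postn* was higher in lin+ cells of each pair, at 237, 96.8, 259 and 220 CPM against 211, 60.2, 230 and 11.1 in lin- sets. Its sets overlapped. *Cxcl14*, a chemokine, was at 184, 198, 304 and 86.9 CPM in lin+ sets and at 393, 650.1, 428 and 351 in lin- sets. Its lin+ sets lay below all lin- sets, with a difference of -1.32 (SE 0.31, limma adjusted p = 0.62). *Mfap2*, a microfibril protein, was at 157, 320.0, 0 and 515 CPM in lin- sets and at 0.126 or less in every lin+ set. Reads were found in 22 lin- and 3 lin+ cells, and day 11 replicate 1 had none in lin- cells. *Tbx1*, a transcription factor, and *Sparc*, a matricellular protein, differed by -2.40 (SE 0.76) and -2.13 (SE 0.97), each with 1 pair against the rest.

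*Lgals1*, a galectin, was at 16.2, 35.6, 16.3 and 23.4 CPM in lin+ sets and at 179, 591, 23 and 657 in lin- sets. The sets overlapped and the difference of -3.16 (SE 0.70) became 1.42 without cluster 1. *Slc38a4*, an amino acid transporter, had no reads in 88 lin+ cells, which allows a share of up to 3.41%, and was at 27.3, 7.91, 72.7 and 21.1 CPM in lin- sets with reads in 12 of them. *Golga7b*, *Tspan7*, *Spsb1* and *Myl9* differed by -4.11, -4.32, -4.59 and -5.33. Each of these 4 had reads in 2 to 6 lin+ cells and 8 to 20 lin- cells, and their sets did not overlap.

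Chemokine genes of keratinocytes had 7 of 10 members tested, 2 higher and 1 lower in all 4 pairs and a median of 1.66, or 0.86 without cluster 1. *Ccl2*, which attracts monocytes, was at 172, 1118, 41.7 and 1807 CPM in lin+ sets and at 49.2, 95.8, 0 and 0 in lin- sets. It was higher in each pair, the sets overlapped, and reads came from 17 lin+ and 4 lin- cells. *Cxcl16* differed by 1.84 (SE 0.53). Matricellular and matrix genes had 12 of 18 members tested, 2 higher and 1 lower in all 4 pairs and a median of -1.85, or -0.12 without cluster 1. Fitted differences in this list ran from -6.09 to 1.30. *Timp3*, an inhibitor of metalloproteases, was at 48.9, 131, 157 and 118 CPM in lin+ sets and at 289, 324, 318 and 193 in lin- sets, and its sets did not overlap.

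The same lineage contrast was set beside late-wound cells of other identities, which are separate cells of the same skin. There 4 of 9163 genes passed (0.0437%), *Krt79*, *Cst6* and *Klk7*, higher by 2.65, 6.09 and 3.25, and *Sfrp1*, lower by 4.33 on the log2 scale. The difference of the differences was tested for 10807 genes, and 0 passed (0% of those tested, limma), with 654 at an unadjusted p under 0.05 and a smallest adjusted p of 0.51. *Krt79* differed by 0.13 in IFE-B cells and by 2.65 in other identities (difference -2.52, SE 0.50, adjusted p = 0.79). *Krt5* differed by 0.64 in IFE-B cells and by -0.87 in other identities (difference 1.52, SE 0.21, adjusted p = 0.51). *Cstb* and *Id3* were also among the 10 genes at the ends of this ranking, with differences of -1.73 and -1.47 between the identities, and neither passed.

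*Ly6d*, *Cd74* and *H2-Aa* were higher in lin+ cells in both classes, by 1.85, 4.76 and 3.67 in other identities. *Adh7* differed by 0.03 in other identities, where its lin+ levels were 142, 143, 197 and 135 CPM and its lin- levels 74, 85.3, 317 and 247. These groups overlapped. Testing all 310 late-wound cells together, 16 of 9602 genes passed (0.167%), 9 higher in lin+ cells, among them *Krt79*, *Cst6*, *Cstb*, *Alox12e*, *H2-Aa*, *H2-Ab1* and *Cd74*, and 7 lower, among them *Lgals1*, *Tbx1* and *Mfap2*.

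**Figure D4:**
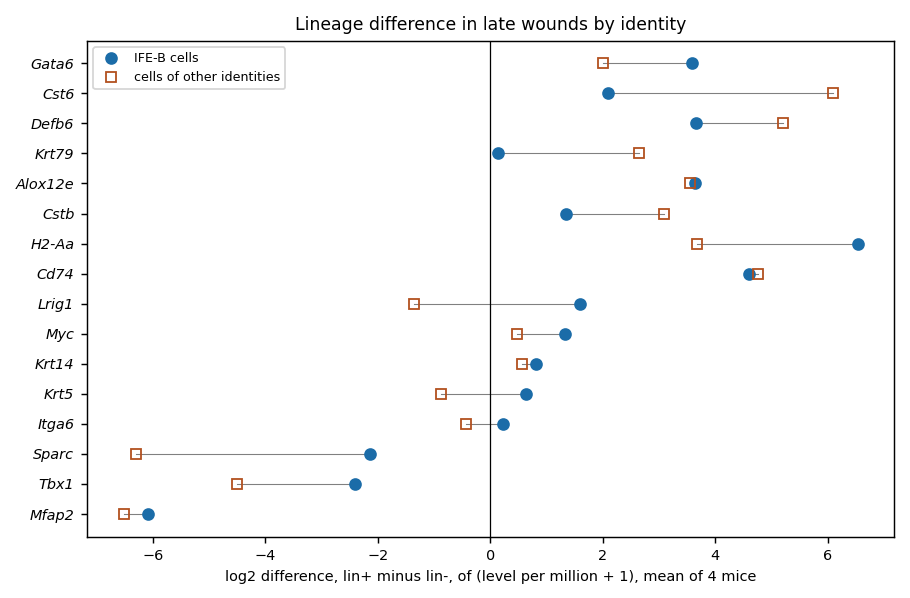
Fitted lineage difference in late wounds (horizontal axis, log2 of the CPM plus 1, mean of 4 pairs) for 16 genes chosen with earlier results known, in IFE-B cells (filled circles) and in cells of other identities (open squares). *Krt79* lies at 0.13 and 2.65 and *Cd74* at 4.61 and 4.76, and no difference between the identities passed the test.

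In unwounded skin 44 lin+ and 67 lin- cells carried the IFE-B label, in 2 replicates, taken from mice also used for days 9 and 11, which the labels do not match up. In sections of unwounded skin the study detected no basal lin+ cells. It proposes that day 0 lin+ cells high for Itga6 may have been lin- contaminants, so the unwounded lin+ cells are an uncertain basal baseline. Their lineage difference was subtracted from that of the late wounds for 10119 genes, and 0 passed (0% of those tested, limma), with 1021 at an unadjusted p under 0.05 and a smallest adjusted p of 0.076. Without day 0 replicate 2, where the unwounded difference rests on 1 pair assumed to vary like the late ones, 102 genes were called, and without day 0 replicate 1, 1 gene. *Ly6d* was at 4208 and 10381 CPM in unwounded lin+ cells and at 5053 and 11347 in unwounded lin- cells. The unwounded groups overlapped, and the late difference minus the unwounded one was 1.62 (SE 0.26, limma adjusted p = 0.20). *Id1* was at 356 and 521 CPM in unwounded lin+ sets and at 57.2 and 206 in lin- sets, higher in both pairs, where it was lower in the 4 late pairs (change -3.87, SE 0.71, limma adjusted p = 0.28).

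*Igfbp3*, a binding protein of insulin-like growth factors, was at 0 in both unwounded lin+ sets and at 381 and 849 CPM in the lin- sets, and differed by 1.65 in late wounds (change 10.79, SE 1.23, limma adjusted p = 0.076). *Thbs1*, a matricellular protein, was at 3.29 and 0.69 CPM in unwounded lin+ sets and at 495 and 469.7 in lin- sets, and differed by 1.26 in late wounds (change 8.73, SE 1.10, limma adjusted p = 0.090). *Gata6* differed by 3.59 in both states, with unwounded levels of 158 and 6.36 CPM in lin+ sets and 7.12 and 0 in lin- cells. The unwounded *Gata6* groups overlapped.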

How the data were processed

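Cells, days, replicates and lineages were taken from the sample labels, which were checked against the deposited annotation and matched it for all 684 cells, and IFE-B and the cluster numbers from that annotation. Of 753 samples 6 are blank wells, and samples outside the annotation were not used. The submitters' processing notes name Trimmomatic (0.27), STAR (2.2), featureCounts and Seurat (3.2.2), and the build is GRCm38. In the combined table the values the authors deposited for the first batch are read counts, and those for the second batch are RPKM. The unit was found from the values, and whole reads could be recovered from the deposited RPKM (of values below 200 reads, 99.99% on average and 99.7% or more in each cell came out whole, with a tolerance of 0.02). The table lists 25001 genes, and 19601 could be followed in both batches once 306 genes under different symbols were joined.

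Values were scaled to the cell total, averaged per set and then brought to 1 scale among the sets of a batch (median of ratios). The package limma (3.58.1, trend and moderated variances, R 4.3.3) was fitted on log2 of the level plus 1 for genes with at least 10 CPM in 2 sets, with the mouse set as block, since both lineages of a set came from the same mouse by the study's methods, and Benjamini-Hochberg adjustment at 0.05. The fits were tested on simulated sets, drawn from the pooled cells of each mouse with known changes put in. These changes were the same in every mouse, so the simulation does not cover a lineage difference that varies between mice. edgeR (4.0.16) and DESeq2 (1.42.0) were run on recovered reads as alternatives. Named genes are the 10 at each end with the smallest unadjusted p among those with 1 direction in 4 pairs and at least 20 CPM in the higher lineage (5 at each end in the other 2 comparisons), leaving out Gm and Rik names, members of each gene list by p, and 16 genes always named. Genes and lists were chosen with earlier results of these data known, and 2 lists and the settings on clusters and cells of few genes after seeing the values. Reads of 2 cells with under 200 genes were kept in the main values, although the study states such a minimum. No doublet caller was run on these sorted wells. Intervals are exact binomial at 95% and, like the floor of 3 counts, cover counting error only. Shares of cells are not independent of the animal. The limma p-values rest on the spread between pairs, moderated by the variance of other genes. One item is not reported here.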

Additional observations from a re-analysis of the deposited data

Results flagged for a closer look

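*Krt79* had opposite signs by day. Its log2 difference between lin+ and lin- IFE-B cells was -1.70 and -0.34 in the 2 pairs of day 9 and 2.27 and 0.31 in the 2 pairs of day 11, so that the mean of day 9 minus that of day 11 was -2.31. Every pair of one day lay on one side of 0 and every pair of the other day on the other side, and the difference between the days was not tested. In lin- cells 1 cell held 38.0% of the summed *Krt79* level.

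*Krt14* had 1 pair far from the other 3. The pair differences were 1.15, 1.28, -0.62 and 1.45, and day 11 replicate 1, at -0.62, was separated from the nearest by 0.853 of the whole range. Chance marks about 1 in 20 groups in this way. That pair had 6.67% of its lin- cells in cluster 1, against 9.52, 70.6 and 70% in the others, and the part of this share in the result was not tested.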

How the results depend on the processing

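Within late-wound IFE-B cells limma called 0 genes higher and 0 lower. Without the replicate block (the pairing by mouse) it called 1 higher (*H2-Aa*) and 2 lower (*Krt73* and *Gjb2*), with 10 added before the log 1 higher (*Cd74*) and 1 lower (*Gjb2*), with all IFE-B sets in 1 fit 1 higher (*Ly6d*) and in the replicate 2 pairs alone 1 higher (*Apoe*). DESeq2 called 279 higher and 213 lower, and the mean over cells of log values 71 and 9. Leaving out 1 pair gave 0 to 4 higher and 0 to 11 lower, the most without day 11 replicate 1. The comparison with unwounded cells, with 0 calls, gave 0 to 76 higher and 0 to 26 lower when 1 pair was left out, 76 and 26 without day 0 replicate 2, and 0 and 1 without day 0 replicate 1. The comparison with other identities gave 0 under each setting tried. Of 776 values of 33 named genes over 24 settings, 704 kept their sign and their side of the threshold, 51 kept their sign and passed, and 21 changed sign. The 20 genes at the ends gave 468 of these values, and their choice required 1 direction in all 4 pairs, which makes a change of sign less likely. No gene passed in the main fit, so keeping the side of the threshold means not passing. *Krt79* (0.13) was -0.15 in edgeR with or without the 2 cells of few genes, -0.18 in DESeq2, -0.043 weighted by cells, -0.017 in replicate 2, -0.38 without cluster 1, -0.58 to 0.76 with 1 pair left out and -0.094 in cells with *Krt5* and *Krt14*. *Itga6* (0.23) was -0.38 in replicate 1, -0.030 without cluster 1 and -0.024 to 0.74 with 1 pair left out. Without cluster 1 *Id3*, *Id1*, *Lgals1* and *Krt14* were 0.29, 0.58, 1.42 and -0.044, and in cluster 0 alone *Id3*, *Tspan7*, *Id1*, *Lgals1*, *Krt14* and *Krt5* were 0.21, 0.72, 0.99, 3.47, -0.67 and -0.50. These fits hold fewer cells (lin- sets of 5 to 19 and of 3 to 7), and the median over all genes was 0.40 and 0.52 in them. The cause of the other changes was not tested. Few cells per set limit genes with reads in few cells, and a set of 15 cells weighs as much as one of 29.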

Other observations

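The remaining lists had these values, beside a median of 0.07 over all genes and 8.43% and 6.19% of genes higher and lower in all 4 pairs. Immediate early and AP-1 genes had 15 tested, 0 higher and 2 lower in lin+ cells in all 4 pairs and a median of -0.07, and actin and migration genes 15 tested, 1 higher and 4 lower and a median of -0.11. Metallothionein and antioxidant genes had 15 tested, 2 higher and 1 lower and a median of 0.16, wound keratins and alarmins 9 tested, 1 higher and 1 lower and a median of 0.41, and cystatins and cathepsins 11 tested, 3 higher and 1 lower and a median of 0.47. Epidermal transcription factors had 16 tested, 2 higher and 3 lower and a median of 0.19, and follicle stem cell markers 9 tested, 2 higher and 1 lower and a median of 0.47. Immune, fibroblast and melanocyte markers had 3, 2 and 3 members tested and medians of 1.83, -2.38 and -1.47. Without cluster 1, where the median of all genes was 0.40, the list medians were 0.34 for immediate early genes, -0.11 for actin and migration, -0.09 for metallothioneins, -0.21 for wound keratins, 0.04 for cystatins, 0.28 for transcription factors and 0.11 for follicle stem cell markers, and the immune, fibroblast and melanocyte lists had only 2, 1 and 1 members tested.

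Single genes of these lists stood apart without passing. *Ovol1*, a transcription factor of epidermal differentiation, had reads in 10 of 88 lin+ cells and 17 of 73 lin- cells, and its highest lin+ set, at 29.2 CPM, was below its lowest lin- set, at 61.3 (difference -3.31, SE 0.83, limma adjusted p = 0.62). *Ftl1*, the ferritin light chain, was at 375, 545, 483 and 542 CPM in lin+ sets and at 707, 757, 963 and 748 in lin- sets, again without overlap (difference -0.71, SE 0.20, limma adjusted p = 0.62). *Gsta4*, a glutathione transferase, was at 3.33, 5.1, 22.4 and 18.7 CPM in lin+ sets and at 0 in the 4 lin- sets, with reads in 6 of 88 lin+ cells and 0 of 73 lin- cells, which allows a share of up to 4.11%.

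Reads in a cell did not always mean a measurable level. *Krt27*, an inner root sheath keratin, had reads in 34 of 88 lin+ cells and 38 of 73 lin- cells, while its set means were 17.4, 3.87, 0.0186 and 0.249 CPM in lin+ sets and 159.9, 416, 0.0653 and 115 in lin- cells.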
